A study of Homo sapiens with 18 samples.

Results

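HSF1 and 9 cytosolic heat shock genes were followed by RNA-seq in U87MG, a human glioblastoma line that is long established. The 10 members were chosen by name and taken from the 58302 genes of the deposited table by their Ensembl identifiers, and all 10 were listed there. The comparison asks which mRNAs differ in level after Erastin. The control group held 2 libraries of U87MG cells labelled WT and grown under normal conditions, with no vehicle named for these libraries. The paper names DMSO as the control of its Western blot. The Erastin group held 2 libraries of U87MG cells given Erastin at 10 μM for 72 h. Erastin shuts off the cystine-glutamate exchanger of the plasma membrane, and cells starved of cystine in this way can die by ferroptosis, in which membrane lipids are peroxidized. All 4 libraries came from this single cell line, and 2 libraries per group is the limit of every comparison below. The p-values measure the spread between these libraries only, with the variance of each gene drawn towards a trend over the genes tested.

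HSF1 is the transcription factor that turns on heat shock genes when misfolded proteins build up. In unstressed cells HSP70 and HSP90 chaperones hold HSF1 inactive, and on stress it forms trimers and binds heat shock elements, which are inverted repeats of the letters GAA, in the promoters of chaperone genes. HSP70 proteins fold clients together with J-domain proteins that deliver them and nucleotide exchange factors that release them, HSP90 takes over late folding of kinases and receptors, and small heat shock proteins hold unfolded proteins in a soluble state.

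The counts on genes totalled between 29412656 and 31513519 per library, and 3 counts corresponded to between 0.095 and 0.10 counts per 1000000 counts (CPM). VIM, of the glioma cell marker list, was abundant in every library. It had 2547 and 2482 CPM in the control libraries and 1609 and 1720 CPM in the Erastin libraries. Of the 7 glioma cell markers, SOX2 and S100B had at most 6 counts in any library, and the summed CPM of the list was 3923 to 3997 in control cells and 2672 to 2861 in Erastin-treated cells, nearly all of it VIM and CD44. NES, at 41.8 and 31.3 CPM in control cells, was downregulated (log2FC -3.62), and GFAP had a log2FC of 0.79 (adjusted p = 0.0696). The summed CPM of the 4 neuron markers was 52.7 to 57.5 in control cells and 12.9 to 13.0 in Erastin-treated cells, nearly all of it SNAP25 (log2FC -3.31) and SYT1 (log2FC -0.98), and the immune and epithelial marker lists stayed below 1 CPM in every library. Endothelial markers summed to 4.64 to 6.18 CPM in control cells and 1.64 to 2.07 CPM in Erastin-treated cells, which was the fall of PECAM1, while VWF was upregulated from 4 and 4 counts to 17 and 32. The part of these shifts in the results below was not tested. In RNA from whole cultures, fewer cells of a kind and less RNA per cell cannot be told apart.

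HSP90AA1, DNAJB1 and HSF1 were higher after Erastin treatment, HSPB1 was lower, and no member reached the log2 fold change (log2FC) of 1 in size that the study used as its limit. A gene is said here to have risen or fallen where its adjusted p was under 0.05 in edgeR's quasi-likelihood test, and to have been upregulated or downregulated where the log2FC was also at least 1 in size. Of the 10 members, 8 passed the filter on low counts and were tested. Among these 3 rose (HSP90AA1, DNAJB1 and HSF1), 1 fell (HSPB1), and HSPA8, HSPH1, BAG3 and CRYAB did neither. Over all 16751 genes tested, 23.2% rose and 23.7% fell, and groups stood apart upwards in 36.7% and downwards in 36.9%, and 47.0% of genes passed the threshold in either direction. Of the 8 tested members, 4 stood apart upwards, 3 downwards, and 1, CRYAB, overlapped. Upregulated or downregulated members numbered 0 by edgeR and 0 by DESeq2, 4 members had an unadjusted p under 0.05 by edgeR, and 15.6% of all genes tested were called in either direction. The median log2FC of the 8 tested members was 0.25, against 0.00 over all genes. With 1 library left out, an adjusted p also depended on which group lost a library, at a like log2FC. Calls lost or gained in this way below are therefore not read as resting on the library left out.

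**Figure D1:**
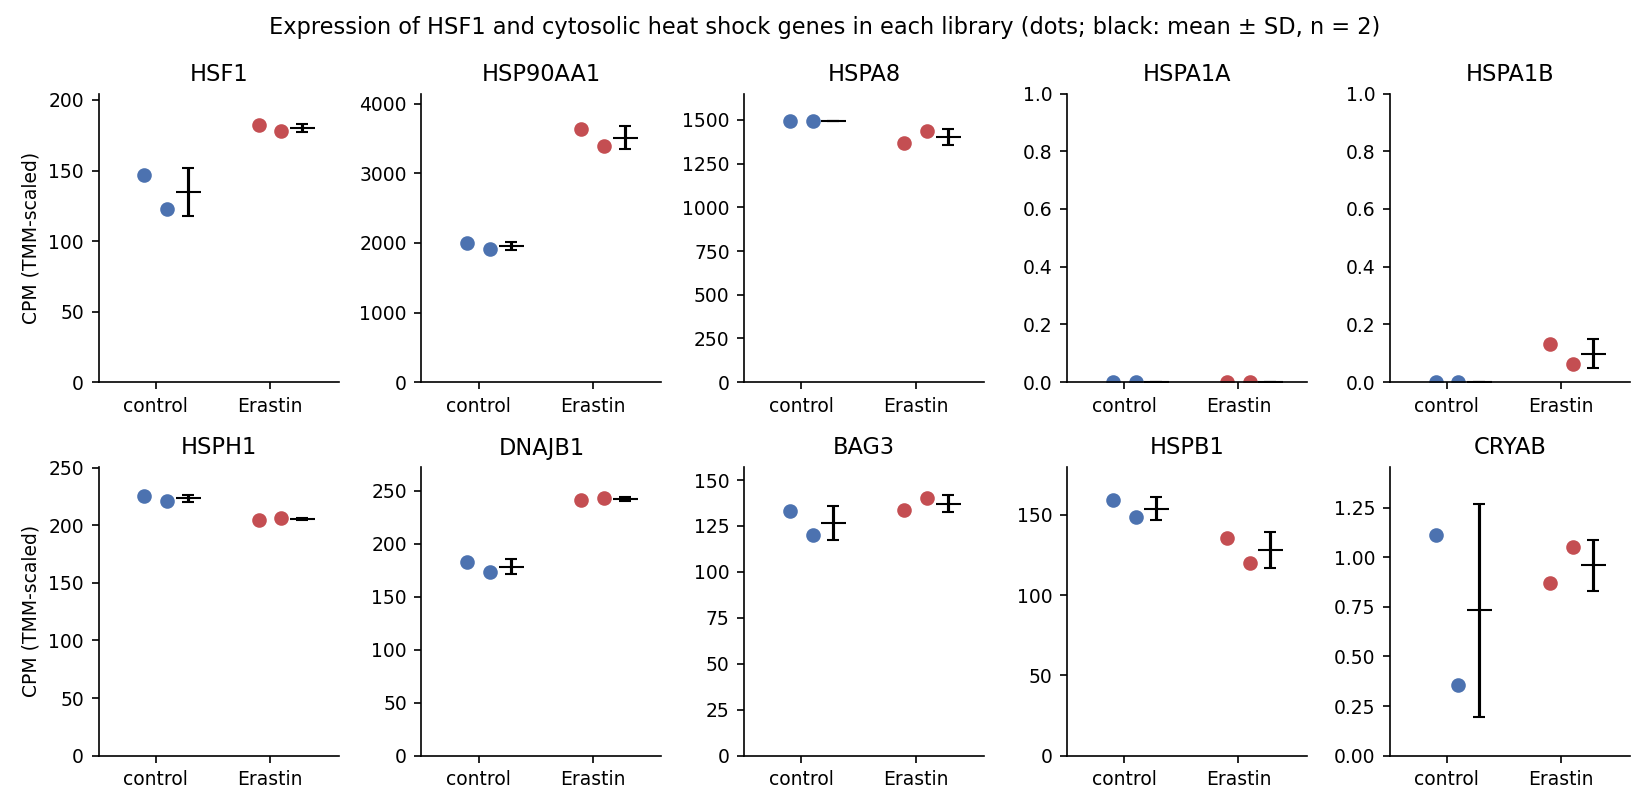
Expression of each member in CPM, scaled by TMM factors (vertical axis, from 0, a separate scale for each gene), in the 2 control and 2 Erastin libraries (dots), with mean ± SD in black. The Erastin libraries lie above both control libraries for HSF1, HSP90AA1, DNAJB1 and, barely, BAG3, below both for HSPB1, HSPA8 and HSPH1, and CRYAB, HSPA1A and HSPA1B lie near 0.

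HSP90AA1, on chr14:102080738-102139699 of GRCh38 (minus strand), encodes the stress-inducible form of cytosolic HSP90. It had 2001 and 1918 CPM in control cells and 3632 and 3394 CPM in Erastin-treated cells. Both Erastin libraries were far above both control libraries. The log2FC was 0.84 ± 0.06 (SE, n = 2 per group, adjusted p = 7.93e-07, edgeR), a 1.79-fold higher level, and the 95% interval of the log2FC, 0.70 to 0.98, ended below the limit of 1. No other member had a larger log2FC in size. Of the summed CPM of all 10 members, HSP90AA1 took 46.1% and 45.7% in control cells and 61.6% and 59.4% in Erastin-treated cells. The summed level of the 10 members went from 4345 and 4198 CPM to 5900 and 5719 CPM. Without HSP90AA1 the sum of the others was 2343 and 2281 CPM in control cells and 2268 and 2325 CPM in Erastin-treated cells, so these groups overlapped.

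HSP90AB1, the constitutive cytosolic HSP90 gene, is the closest relative of HSP90AA1 and was compared with it per length. HSP90AB1 had 893 and 882 CPM per kilobase of exons in control cells and 857 and 816 in Erastin-treated cells, with a log2FC of -0.09 ± 0.06 (adjusted p = 0.283) and a 95% interval of -0.22 to 0.05. Per kilobase, HSP90AA1 stood at 381 and 365 CPM in control cells and at 692 and 647 CPM in Erastin-treated cells. The ratio of the HSP90AA1 to the HSP90AB1 level per kilobase was 0.427 and 0.414 in control cells and 0.807 and 0.793 in Erastin-treated cells. HSP90AA1 thus made up 29.9% and 29.3% of the level per kilobase of this pair in control cells, and 44.7% and 44.2% in Erastin-treated cells. These shares depend on the exon lengths used, 5248 bases for HSP90AA1 and 2980 for HSP90AB1. In plain CPM, HSP90AB1 had 2661 and 2628 in control cells and 2555 and 2431 in Erastin-treated cells. HSP90AA1, at 3632 and 3394 CPM, was above it in the Erastin libraries. The ratios did not overlap between the groups, although an exact two-sided permutation test of 2 libraries against 2 cannot give a p below 0.333.

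**Figure D2:**
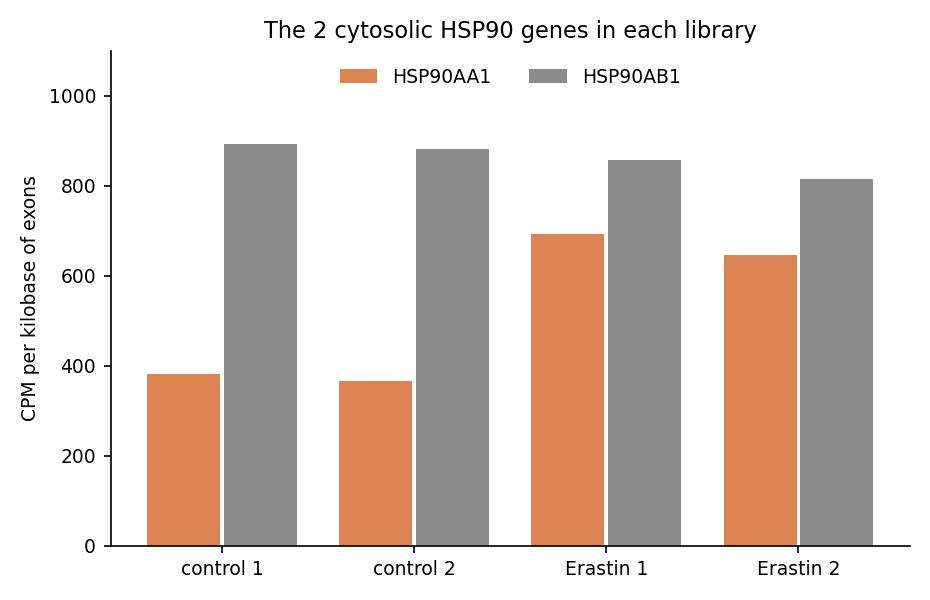
Level of HSP90AA1 and HSP90AB1 in CPM per kilobase of exons (vertical axis) in each of the 4 libraries (bars, from 0). HSP90AA1 stands at 365 to 381 in control cells and 647 to 692 in Erastin-treated cells, whereas HSP90AB1 stands between 816 and 893 throughout.

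Both HSP90 genes share stretches of sequence with other places in the genome, and the table leaves out multi-mapping reads. Of the 31-base words of the longest HSP90AA1 transcript, 40.8% occurred more than once on the primary chromosomes, and for HSP90AB1 the share was 40.7%. The levels of both genes therefore rest on part of their sequence. The 5 HSP90AA1 pseudogene rows of the table together had 374 and 339 counts in control cells and 540 and 557 in Erastin-treated cells, nearly all of them on HSP90AA2P with 366, 337, 528 and 548 counts. These were small beside the 59573 to 108650 counts on HSP90AA1 itself, and were also higher in both Erastin libraries. Whether reads of HSP90AA1 made up these counts was not tested.

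Among the 9508 tested genes whose mean reached 10 CPM, the 3 whose centred log2 CPM lay nearest to that of HSP90AA1 over the 4 libraries were SPPL2A, QTRT1 and FBXO22. Their Euclidean distances were 0.0110, 0.0305 and 0.0345. SPPL2A, an intramembrane protease, had 69.9 and 66.8 CPM in control cells and 127 and 118 CPM in Erastin-treated cells. FBXO22, an F-box protein of a ubiquitin ligase, had 64.5 and 62.5 CPM in control cells and 116 and 112 CPM in Erastin-treated cells. With 4 libraries this likeness is a description only.

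HSF1, on chr8:144291591-144314722 (plus strand), had 147 and 123 CPM in control cells and 182 and 178 CPM in Erastin-treated cells. The Erastin libraries were both above the control libraries, and the control libraries differed from each other by more than the Erastin libraries did. The log2FC was 0.42 ± 0.08 (adjusted p = 0.00162), a 1.33-fold higher level, and leaving out 1 library at a time gave a log2FC between 0.28 and 0.55, past the test each time. Activity of HSF1 depends on trimers and modification of the protein, which counts of its mRNA do not measure. Of the exon bases of HSF1, 2.62% also lie in a gene on the opposite strand, and the counts were made without regard to strand.

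None of the other heat shock factor genes rose. HSF2, a second stress factor that can form mixed trimers with HSF1, fell from 45.3 and 46.1 CPM to 32.6 and 28.2 CPM (log2FC -0.59 ± 0.10, adjusted p = 4.90e-04). HSF4, best known from the lens, had a log2FC of 0.15 (adjusted p = 0.492), which was -0.05 without control replicate 1 and 0.36 without control replicate 2. Of the exon bases of HSF4, 31.4% also lie in another gene. HSBP1, which binds heat shock factor trimers, had a log2FC of 0.07 (adjusted p = 0.416). HSF2BP, a binding partner of HSF2, had 29 and 26 counts in control cells and 74 and 42 in Erastin-treated cells, with a log2FC of 1.09 and an adjusted p of 0.0567. HSF2BP passed both limits in 5 of 12 alternatives, among them without Erastin replicate 2 (log2FC 1.47, adjusted p = 0.0148), library totals (adjusted p = 0.0452), thinned counts (0.0428), no filter (0.0310) and at least 10 counts in every library (0.0372). Without Erastin replicate 1 its log2FC was 0.58 (adjusted p = 0.433). HSF5 had 1 count in all 4 libraries together and was not tested. Of these 5 genes, 4 were tested, 1 fell and 0 rose, beside 23.7% and 23.2% of all genes, and their median log2FC was 0.11.

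HSPA8, on chr11:123057489-123063230 (minus strand), encodes the constitutive HSP70 of the cytosol and was the second most abundant member in CPM. It had 1494 CPM in each of the control libraries and 1369 and 1436 CPM in the Erastin libraries. The Erastin libraries were both slightly lower, but the log2FC of -0.09 ± 0.06 did not pass the test (adjusted p = 0.250), and its 95% interval ran from -0.23 to 0.04. Of the HSPA8 transcript's 31-base words, 49.8% occurred more than once on the primary chromosomes. The 17 HSPA8 pseudogene rows held 12, 42, 19 and 39 counts in the 4 libraries, against 40960 to 46422 on HSPA8.

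The heat-inducible HSP70 genes HSPA1A and HSPA1B had almost no counts in this table. HSPA1A, on chr6:31815464-31817946 (plus strand), was listed at 0 in all 4 libraries. HSPA1B, on chr6:31827735-31830255 (plus strand), had 0 and 0 counts in control cells and 4 and 2 in Erastin-treated cells. At 3 counts a library, these depths limit counted reads to about 0.1 CPM, but the limit holds for reads that match 1 place only. The sum of both genes, 0, 0, 4 and 2 counts, also did not pass the filter on low counts. With no filter HSPA1B, whose counts equal the sum, had an adjusted p of 0.356, and no fold change is given since both groups lie at or near the floor.

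The HSPA1A and HSPA1B coding sequences in GRCh38, 1923 bases each without the stop codon, differed at 4 positions, an identity of 99.8%, and the longest identical run was 1709 bases. The stretch with 2 of the 4 differences, coding bases 1891 to 1920, is printed 5′ to 3′ because it holds these differences close together, with the differing bases in capitals. HSPA1A lies there at chr6:31817647-31817676 and HSPA1B at chr6:31829841-31829870, both on the plus strand.
HSPA1A: tctgggtcaggcccCaccattgaggaggtA
HSPA1B: tctgggtcaggcccTaccattgaggaggtG

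The alternate scaffolds of GRCh38, which give other versions of parts of the genome, carry further copies of both genes. Of the 31-base words of the HSPA1A transcript, 76.9% occurred more than once on the primary chromosomes, 98.7% also occurred on the 261 alternate scaffolds, and 0% occurred only once in both together. For HSPA1B these shares were 73.7%, 98.8% and 0%. Whether the authors' index held the alternate scaffolds is not given in the sources used here.

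3 other listed genes of chromosome 6 also had few or no counts. HSPA1L, the HSP70 gene next to HSPA1A, and PFDN6, a prefoldin subunit, were listed at 0 in every library and shared 99.0% and 95.4% of their words with the alternate scaffolds. BAG6, a chaperone for membrane proteins that most cells express, had 19, 4, 8 and 9 counts and shared 81.9%. The other 82 genes of the member and chaperone lists shared at most 17.6% and had a median of 8832 counts over the 4 libraries. Of 68 protein-coding genes within 500 kilobases of HSPA1A, 38 (55.9%) were listed at 0 in all libraries, against 205 of 959 (21.4%) on the rest of chromosome 6. HYOU1, a chaperone of the endoplasmic reticulum, was also listed at 0 while sharing 0% of its words with the alternate scaffolds. The values listed for HSPA1A and HSPA1B are therefore not read as their expression in either group, and the cause of the zeros was not tested.

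**Figure D3:**
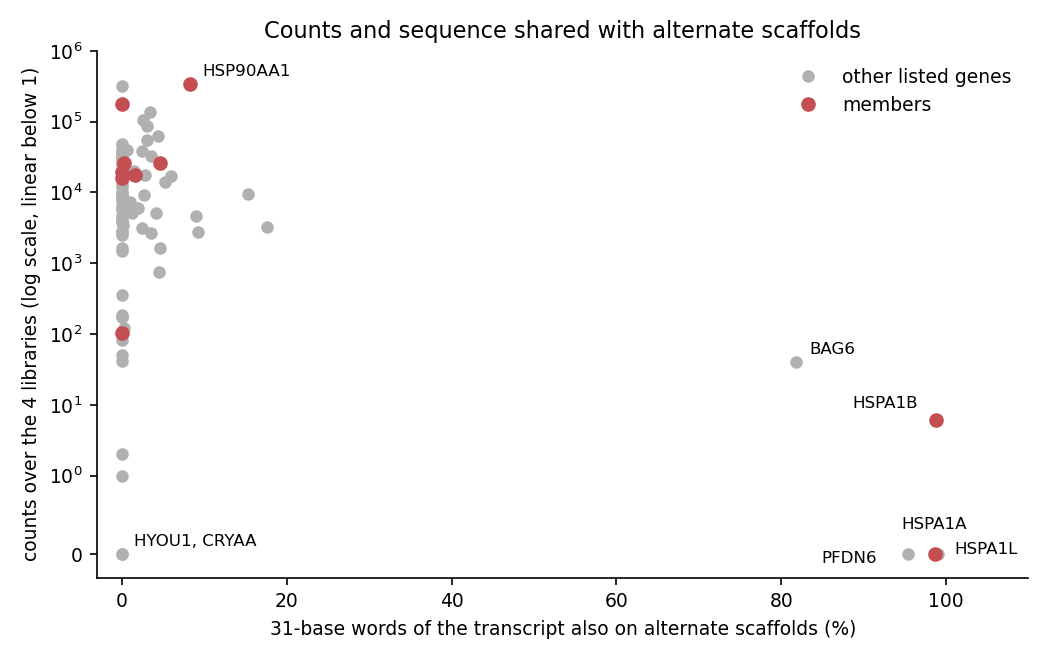
Counts summed over the 4 libraries (vertical axis, log scale above 1 and linear below) against the percentage of each transcript's 31-base words that also occur on the alternate scaffolds of GRCh38, for members (red) and other chaperone genes (grey). HSPA1A, HSPA1B, HSPA1L, PFDN6 and BAG6 sit at 81.9% to 99.0% with at most 40 counts, and the other genes sit at 17.6% or less.

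The remaining HSP70 genes moved in both directions. HSPA6, a strictly heat-inducible HSP70, was upregulated from 14 and 9 counts in control cells to 48 and 49 in Erastin-treated cells (log2FC 2.07 ± 0.50, adjusted p = 0.00492). These counts are low, and 68.8% of the words of HSPA6 occurred more than once on the primary chromosomes. HSPA4L, an HSP110 relative of HSPH1, was upregulated from 22.0 and 22.8 CPM to 56.5 and 51.9 CPM (log2FC 1.27 ± 0.10, adjusted p = 6.98e-07). HSPA2, an HSP70 best known from the testis, was downregulated from 22.6 and 21.5 CPM to 4.58 and 5.28 CPM (log2FC -2.16 ± 0.15, adjusted p = 2.91e-07). HSPA4 (log2FC -0.23, adjusted p = 0.00959) and HSPA14 (log2FC -0.41, adjusted p = 0.0122) fell, both within the limit. Neither passed without Erastin replicate 1 (HSPA4 -0.27, adjusted p = 0.0516, and HSPA14 -0.42, adjusted p = 0.0587) or without Erastin replicate 2 (HSPA4 -0.21, adjusted p = 0.128, and HSPA14 -0.41, adjusted p = 0.0524). HSPA14 also did not pass without control replicate 2 (log2FC -0.32). Of the exon bases of HSPA14, 46.5% also lie in CDNF or MSANTD7, the latter on the same strand. Of the 6 genes of this list 5 were tested, 2 rose and 3 fell, beside 23.2% and 23.7% of all genes, and all 5 had groups that did not overlap, as 73.6% of all genes tested did.

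HSPH1, on chr13:31134974-31162388 (minus strand), is the HSP110 that exchanges nucleotide on HSP70 and works in pulling apart aggregates. It had 226 and 221 CPM in the control libraries and 205 and 206 CPM in the Erastin libraries. The groups did not overlap, but the log2FC of -0.12 ± 0.06 did not pass the test (adjusted p = 0.143, 95% interval -0.26 to 0.02). Of the related genes of this class, HSPA4 fell and HSPA4L was upregulated, as given above, and differences between the genes were not tested.

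DNAJB1, on chr19:14514770-14529770 (minus strand), is the main stress-inducible J-domain partner of cytosolic HSP70. It had 183 and 173 CPM in control cells and 241 and 244 CPM in Erastin-treated cells. Both Erastin libraries were above both control libraries, and the replicates of each group lay close together. The log2FC was 0.44 ± 0.07 (adjusted p = 1.68e-04), a 1.36-fold higher level. Of its exon bases, 6.21% also lie in TECR or MIR639 on the opposite strand.

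Of 9 other J-domain genes, all tested, 2 rose (23.2% of all genes did), 1 fell (23.7%) and 6 did neither, with a median log2FC of 0.13. DNAJB2, a J-domain protein known for sorting clients to the proteasome in neurons, was upregulated from 54.8 and 48.0 CPM to 110 and 114 CPM (log2FC 1.12 ± 0.08, adjusted p = 5.09e-07). DNAJA1, a farnesylated HSP70 partner, rose with a log2FC of 0.21 (adjusted p = 0.0161), and DNAJB5 fell with a log2FC of -0.68 (adjusted p = 1.57e-04). Both of these stayed within the limit, and DNAJA1 did not pass without Erastin replicate 1 (log2FC 0.19, adjusted p = 0.152) or Erastin replicate 2 (log2FC 0.23, adjusted p = 0.0828).

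BAG3, on chr10:119651370-119677819 (plus strand), is an HSP70 nucleotide exchange factor that joins HSP70 to small heat shock proteins and leads clients to autophagy. It had 133 and 120 CPM in the control libraries and 134 and 140 CPM in the Erastin libraries. The lower Erastin library was barely above the higher control library. The log2FC of 0.12 ± 0.07 did not pass the test (adjusted p = 0.226, 95% interval -0.05 to 0.28). Without control replicate 1 the log2FC was 0.19 with an adjusted p of 0.0499, and without control replicate 2 it was 0.04 with an adjusted p of 0.756. Of 6 other exchange factor genes 5 were tested, 1 rose and 0 fell, beside the same 23.2% and 23.7%. The gene that rose was HSPBP1, which releases nucleotide from HSP70 (log2FC 0.43, adjusted p = 0.00371). It passed whichever library was left out, with a log2FC from 0.27 without control replicate 2 to 0.59 without control replicate 1. BAG1 had the next log2FC in size, 0.22 (adjusted p = 0.138), with a range from 0.11 to 0.32 over the same libraries.

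HSPB1, on chr7:76302544-76304295 (plus strand), encodes HSP27, the most widely expressed small heat shock protein. It had 159 and 149 CPM in control cells and 136 and 120 CPM in Erastin-treated cells. Both Erastin libraries were below both control libraries. The log2FC was -0.27 ± 0.08 (adjusted p = 0.0144), a 1.20-fold lower level. Without Erastin replicate 2, the lower of the Erastin libraries, the log2FC was -0.18 and no longer passed (adjusted p = 0.207).

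CRYAB, on chr11:111908565-111923722 (minus strand), encodes αB-crystallin, a small heat shock protein of lens, muscle and glia. It had only 34 and 11 counts in control cells and 26 and 33 in Erastin-treated cells. The control libraries alone spanned the Erastin libraries, from 0.354 to 1.11 CPM against 0.869 to 1.05 CPM. The log2FC of 0.39 ± 0.59 did not pass the test (adjusted p = 0.624), and its 95% interval ran from -0.90 to 1.68, so no difference was detectable at this depth within that range. Leaving out 1 library at a time moved the log2FC from -0.22 to 1.43. Of the exon bases of CRYAB, 20.6% also lie in HSPB2 or HSPB2-C11orf52 on the opposite strand, and HSPB2 itself had 2 counts in all.

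HSPB8, the small heat shock protein that works in a complex with BAG3, was upregulated while HSPB1 fell. It had 133 and 124 CPM in the control libraries and 256 and 272 CPM in the Erastin libraries (log2FC 1.04 ± 0.07, adjusted p = 2.66e-07). Without control replicate 2 the log2FC of HSPB8 was 0.99, just under the limit. Its partner BAG3 had a 95% interval that ended at 0.28. HSPB8 was the only gene of the 8 in the list of other small heat shock proteins that rose, 6 were tested, and none fell, beside 23.2% and 23.7% of all genes that rose and fell. The remaining 5 tested had adjusted p-values from 0.0685 to 0.257, and most of them had few counts. HSPB11, the lowest of these p-values, had a log2FC of -0.41 (adjusted p = 0.00890) without control replicate 1 and of -0.15 (adjusted p = 0.411) without control replicate 2. HSPB7, with 10 and 45 counts in control cells and 50 and 81 in Erastin-treated cells, had a log2FC of 1.25 and an adjusted p of 0.0853. It passed both limits without control replicate 2 (log2FC 2.68, adjusted p = 1.00e-04), with the replicate block (1.45, adjusted p = 0.0129) and with no filter on low counts (1.25, adjusted p = 0.00755), and had a log2FC of 0.55 (adjusted p = 0.367) without control replicate 1.

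**Figure D4:**
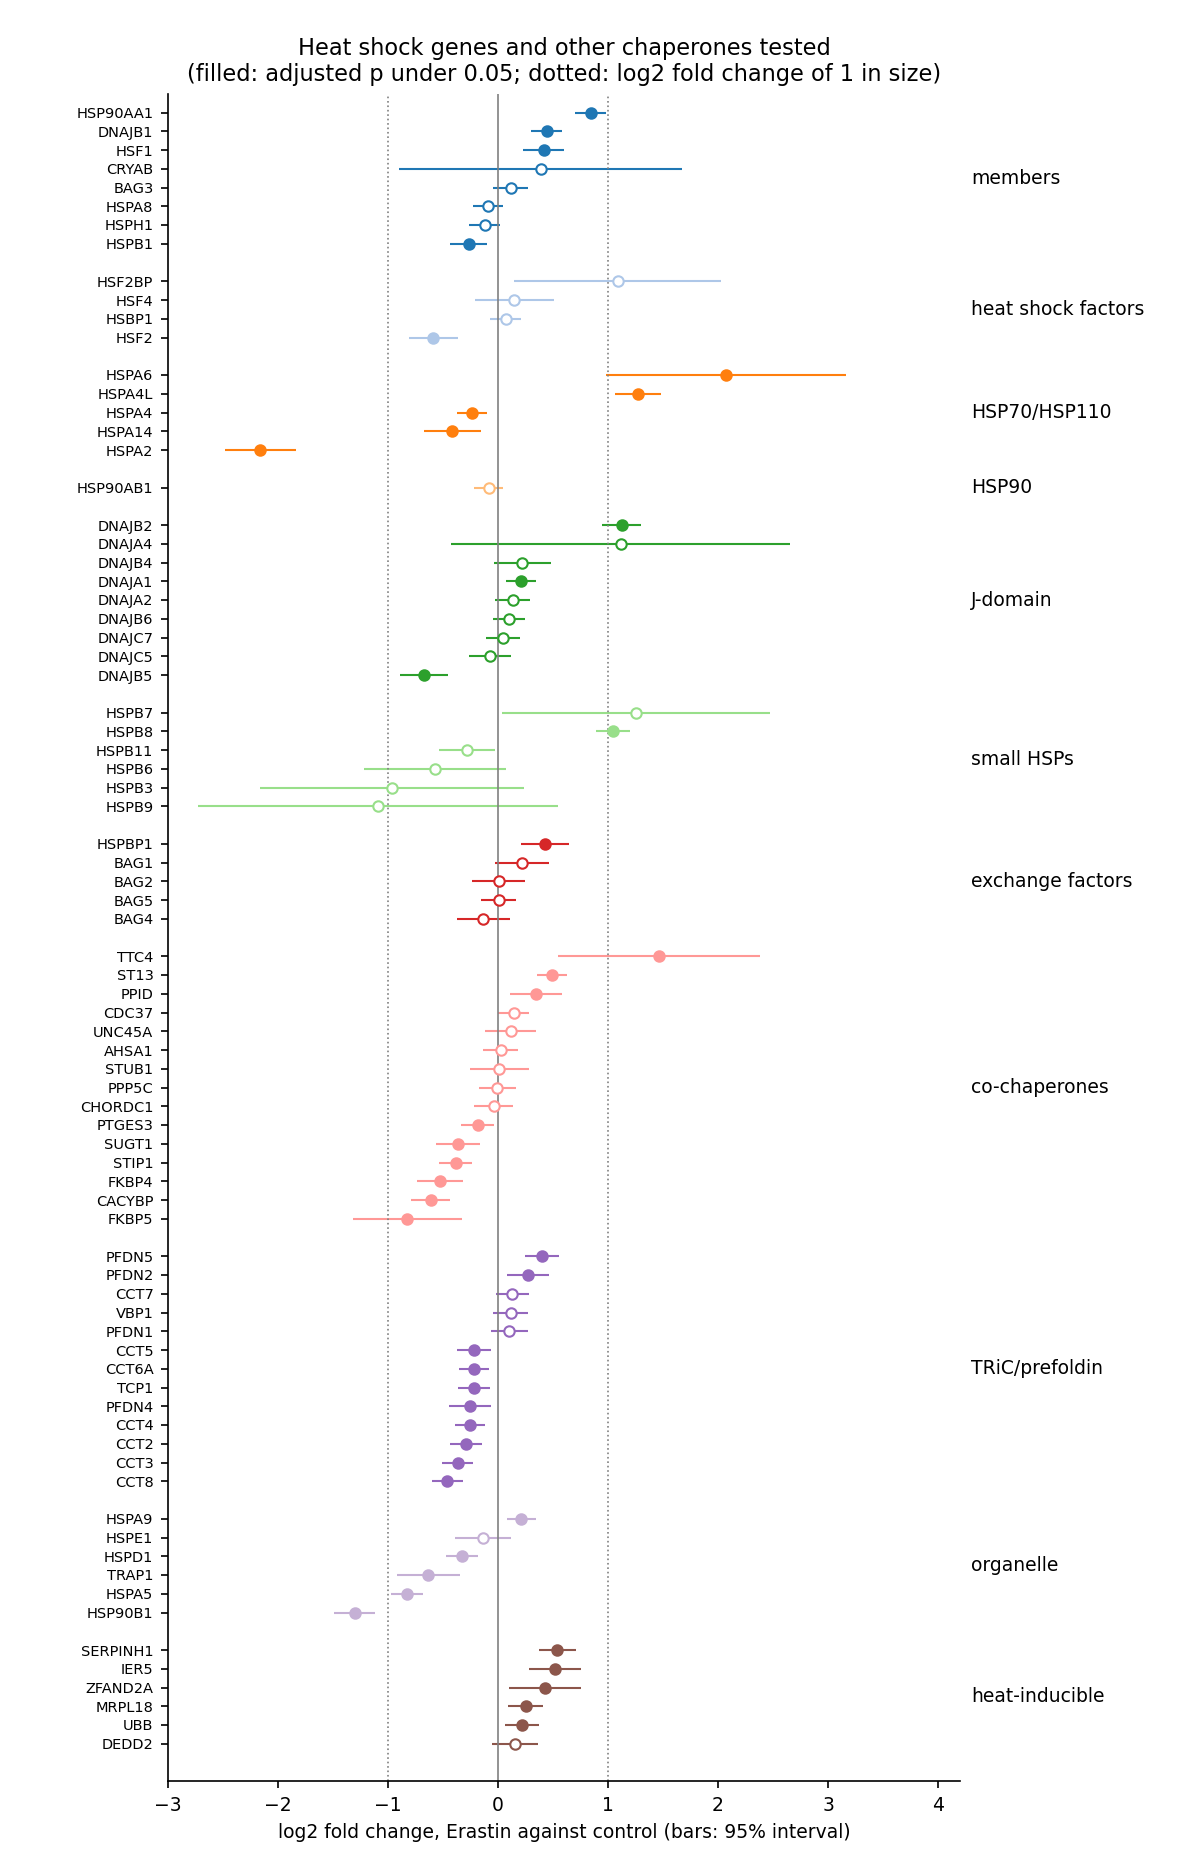
Log2FC of Erastin-treated against control cells (horizontal axis) with 95% intervals for the 8 members and 70 other chaperone and heat-inducible genes tested, grouped by list. Filled dots have an adjusted p under 0.05, and dotted lines mark a log2FC of 1 in size. The members lie between -0.27 and 0.84, and only 7 of the other genes lie past the dotted lines with filled dots.

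The other genes of the chaperone network, 77 in 10 lists, gave 70 that were tested, of which 17 rose and 23 fell, where 23.2% and 23.7% of all genes did. Past the limit, 5 were upregulated (HSPA6, TTC4, HSPA4L, DNAJB2 and HSPB8) and 2 were downregulated (HSPA2 and HSP90B1), beside backgrounds of 6.24% and 9.34% of all genes. Their median log2FC was 0.01.

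Of 15 co-chaperones of HSP90 and HSP70, 3 rose and 6 fell, where 23.2% and 23.7% of all genes did. TTC4, an HSP90 co-chaperone, was upregulated at low counts, 20 and 26 in control cells and 75 and 51 in Erastin-treated cells (log2FC 1.46 ± 0.42, adjusted p = 0.0129), and 52.4% of its exon bases lie in another gene. Without Erastin replicate 1 its log2FC was 1.12 and the adjusted p was 0.118. ST13, which binds HSP70 and HSP90, rose (log2FC 0.49, adjusted p = 4.63e-05) and passed whichever library was left out. PPID, which rose, lost its call whichever library was left out (adjusted p from 0.0504 to 0.0943), while its log2FC stayed between 0.34 and 0.35. PTGES3, which fell, lost its call without control replicate 2 (0.185), Erastin replicate 1 (0.204) or Erastin replicate 2 (0.185), with a log2FC of -0.12, -0.18 and -0.19. FKBP5, a stress-induced immunophilin, had the largest fall (log2FC -0.82, adjusted p = 0.00999), which went to -0.59 (0.0788) without Erastin replicate 2 and to -1.10 (0.00479), past both limits, without Erastin replicate 1. Those that fell included CACYBP, which binds SIAH1 in a ubiquitin ligase complex (log2FC -0.61, adjusted p = 7.68e-05), STIP1, which links HSP70 to HSP90 (log2FC -0.39, adjusted p = 5.56e-04), and FKBP4, an immunophilin of steroid receptor complexes (log2FC -0.53, adjusted p = 7.88e-04). CDC37, which brings kinases to HSP90, had a log2FC of 0.14 (adjusted p = 0.0967, and from 0.0415 to 0.353 with 1 library left out), and AHSA1, which stimulates the HSP90 ATPase, had a log2FC of 0.02 (adjusted p = 0.814).

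Of the 14 genes of the TRiC chaperonin and its helper prefoldin, which fold actin and tubulin, 13 were tested, 8 fell and 2 rose, where 23.7% of all genes fell and 23.2% rose, and none reached the limit. Only CCT3, CCT8 and PFDN5 passed whichever library was left out. The falls of TCP1, CCT2, CCT4, CCT5, CCT6A and PFDN4 lost their call without Erastin replicate 2 (adjusted p from 0.0537 for CCT2 to 0.308 for CCT5). The log2FC then went from -0.22 to -0.14 for CCT5 and from -0.22 to -0.18 for TCP1. It went from -0.29 to -0.27 for CCT2 and from -0.26 to -0.24 for CCT4. For CCT6A it stayed at -0.22 and for PFDN4 at -0.25. Calls were also lost for TCP1, CCT6A and PFDN4 without Erastin replicate 1, where the log2FC was -0.26, -0.21 and -0.26. PFDN4 also lost its call without control replicate 2 (log2FC -0.16). PFDN2 lost its call without Erastin replicate 1, where its log2FC went from 0.28 to 0.19. CCT7 rose without control replicate 1 (log2FC 0.18, adjusted p = 0.0415). TRiC subunits accounted for 7 of the falls, led by CCT8 (log2FC -0.46 ± 0.06, adjusted p = 1.04e-04). The largest rise was that of PFDN5 (log2FC 0.40 ± 0.07, adjusted p = 5.83e-04). Of the exon bases of CCT5, 30.1% also lie in another gene.

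Of 7 chaperones of other compartments 6 were tested, 4 fell and 1 rose, beside 23.7% and 23.2% of all genes. HSP90B1, the HSP90 of the endoplasmic reticulum, was downregulated from 1091 and 1310 CPM to 501 and 473 CPM (log2FC -1.30 ± 0.09, adjusted p = 2.05e-07). HSPA5, the HSP70 of the endoplasmic reticulum known as BiP, fell from 1376 and 1503 CPM to 824 and 797 CPM (log2FC -0.83 ± 0.07, adjusted p = 1.23e-06). HSP90AA1 and HSP90B1, both HSP90 genes, thus passed the test in opposite directions. In mitochondria, TRAP1 (log2FC -0.63, adjusted p = 0.00198) and HSPD1 (log2FC -0.33, adjusted p = 0.00157) fell and HSPA9 rose (log2FC 0.21, adjusted p = 0.0135). Of the exon bases of TRAP1, 29.3% also lie in another gene. HSPA9 did not pass without Erastin replicate 1 or Erastin replicate 2, while its log2FC stayed at 0.21. HSPE1, the partner of HSPD1, had a log2FC of -0.14 (adjusted p = 0.360).

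All 6 other genes of the heat-inducible list had a positive log2FC, and 5 of them rose, with a median of 0.34 and none past the limit, where 23.2% of all genes rose. SERPINH1 and IER5 passed whichever library was left out. UBB, a polyubiquitin gene, lost its call without Erastin replicate 1, where its log2FC went from 0.22 to 0.15. Of the words of UBB, 55.9% occurred more than once on the primary chromosomes. MRPL18 lost its call without Erastin replicate 1 or 2, while its log2FC of 0.25 became 0.24 and 0.27. ZFAND2A lost its call without control replicate 2 or Erastin replicate 2, where its log2FC went from 0.43 to 0.30 and 0.31. SERPINH1, the collagen chaperone HSP47, had the largest value and rose with a log2FC of 0.54 (adjusted p = 1.16e-04). IER5, a cofactor of HSF1, rose with a log2FC of 0.52 (adjusted p = 0.00191). This list was put together with earlier results of these data known, so its direction is not independent evidence.

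Heat shock elements were sought in the RefSeq promoter windows of GRCh38.p14, 250 bases before to 50 after each start site. The 3-unit form was searched as GAANNTTCNNGAA and TTCNNGAANNTTC, which are reverse complements of each other, so that both strands were covered and neighbouring matches could overlap. Of 35116 windows of this length, 172 (0.490%) held a 3-unit match. Windows were given for 8 of the 10 members, and not for HSF1 and CRYAB. A match was found for HSP90AA1, which rose, and for HSPA8, which did not pass the test. These windows are shown on the strand of the gene, all minus, with the matched letters in capitals.
HSP90AA1, chr14:102087111-102087140: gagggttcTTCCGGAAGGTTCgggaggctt
HSPA8, chr11:123062345-123062374: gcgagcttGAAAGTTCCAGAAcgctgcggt
HSPA8, chr11:123062170-123062199: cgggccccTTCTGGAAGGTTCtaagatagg

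The HSP90AA1 match began 88 bases before the start site, and those of HSPA8 began 230 and 55 bases before it. DNAJB1, which rose, held no 3-unit match in any of its 3 windows. Among the other listed genes, 66 had windows and 7 held a match. Of these 7, HSPA6 was upregulated, SERPINH1 and DNAJA1 rose (the match of DNAJA1 began 3 bases after its start site), HSPD1 fell, and HSP90AB1, DNAJB6 and CHORDC1 did not pass the test. The windows of HSPA6, SERPINH1 and HSP90AB1 are shown on the plus strand and that of HSPD1 on the minus strand, the strands of the genes. HSPD1 held overlapping matches that began 245 and 240 bases before its start site. Its printed stretch holds both, with only the match at 245 bases in capitals.
HSPA6, chr1:161524458-161524487: cggaaaggTTCGCGAAAGTTCgcggcggcg
SERPINH1, chr11:75562169-75562198: ttccaactTTCCAGAAGTTTCtcgggacgg
HSP90AB1, chr6:44247770-44247799: ggagcaggTTCTGGAAGATTCatgggctcc
HSP90AB1, chr6:44247823-44247852: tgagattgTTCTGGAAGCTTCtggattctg
HSPD1, chr2:197500061-197500090: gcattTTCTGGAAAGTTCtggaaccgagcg

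Genes with a match thus rose, fell or did neither. A match is a run of letters, and binding of HSF1 was not measured here.

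Per kilobase of exons, the order of the members in control cells was HSP90AA1 (373 CPM per kilobase), HSPA8 (308), HSPB1 (94.1), DNAJB1 (48.6), BAG3 (46.1), HSPH1 (26.6), HSF1 (25.4) and CRYAB (0.242). In this order DNAJB1 and BAG3, and HSPH1 and HSF1, overlapped between neighbours, and the other neighbours with counts did not. In Erastin-treated cells the levels were HSP90AA1 669, HSPA8 289, HSPB1 78.3, DNAJB1 66.0, BAG3 49.9, HSF1 33.9, HSPH1 24.5 and CRYAB 0.316 CPM per kilobase. No neighbours with these levels overlapped there, and HSF1 stood above HSPH1. Both orders depend on the exon lengths used, 5248 bases for HSP90AA1 and 4849 for HSPA8. Their longest transcripts had 3510 and 2306 bases, so the order of these genes can change with the length chosen. Multi-mapping reads were also left out. Apart from CRYAB, replicates of the tested members differed by at most 0.26 on the log2 scale, which was the difference between the control libraries of HSF1.

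**Figure D5:**
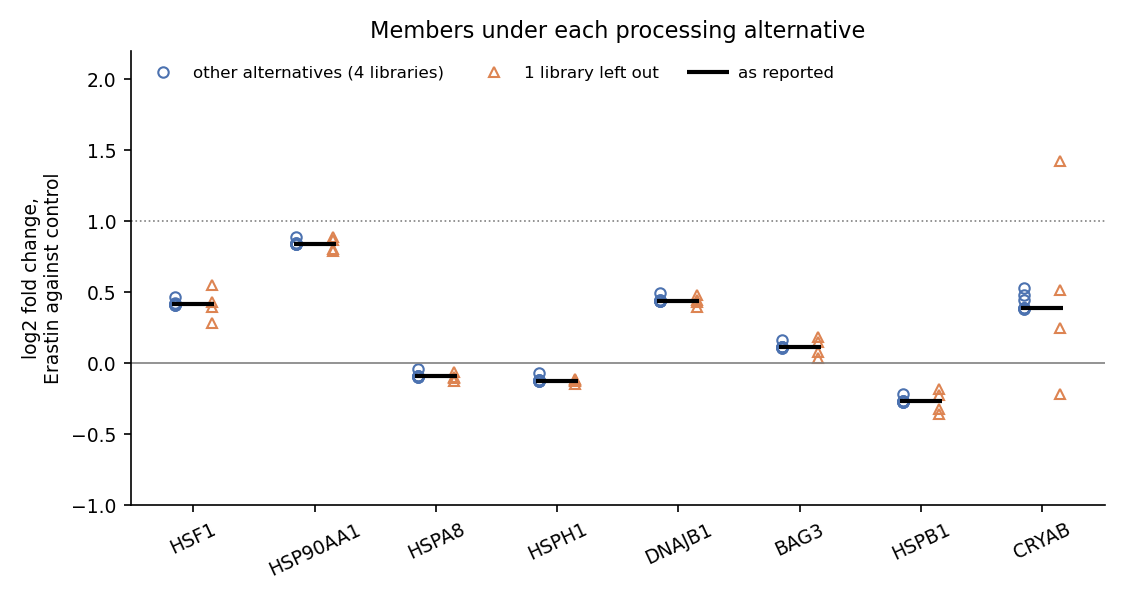
Log2FC of each tested member (vertical axis) as reported (black line), under alternatives that kept all 4 libraries (blue circles) and with 1 library left out (orange triangles). HSP90AA1 stays between 0.79 and 0.89, below the dotted line at 1, and CRYAB ranges from -0.22 to 1.43.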

How the data were processed

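The RNA-seq counts of the 4 U87MG libraries were used, and the ChIP-seq and HiChIP samples were not analysed here. The authors deposited raw counts of reads per gene, unnormalized, in a table whose header names featureCounts 2.0.3 and the Ensembl release 90 annotation of GRCh38, while the submitters' processing notes list HISAT2 2.1.0 and featureCounts 2.0.4. Reads were counted without regard to strand, multi-mapping reads were left out, and mates of a pair were counted separately. The deposited values were checked for the decimals of estimated counts, and rounding changed 0 values. The exon length per gene, another deposited column, gave levels per kilobase.

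Counts were analysed in R 4.3.3. Genes with low counts were removed by filterByExpr of edgeR 4.0.16 (minimum count 10), which left 16751, and TMM factors lay between 0.971 and 1.02. The quasi-likelihood test compared Erastin with control, two-sided, with Benjamini-Hochberg adjustment over all genes tested, and was tested on simulated data. The biological coefficient of variation was 10.3%. The variance of each gene was drawn towards a trend over the genes tested, with 9.48 prior degrees of freedom. The SE and intervals therefore rest on other genes as well. CPM were relative to 1000000 counts of the TMM-scaled library. Intervals and the limit of 3 counts cover counting or replicate error only, since PCR reads are not independent molecules. Replicates were separate libraries, with the same count in 1.57% and 1.59% of tested genes.

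Words of 31 bases were taken from each gene's longest GENCODE release 44 transcript and sought in GRCh38 with its 261 alternate scaffolds. Promoter windows came from RefSeq.

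The members, gene lists and tests were chosen with earlier results of these data known, and 1 gene was left out of its list and is not reported here. Named genes were all members, all genes of the heat shock factor, HSP70 and HSP110, HSP90 and organelle lists, and, of each further list, up to 4 genes past the limits or else the 2 with the largest change. Other listed genes that are named were chosen after their values were seen. The alternatives were RLE size factors, DESeq2 1.42.0, no filter, plain library totals, at least 10 counts in every library, a replicate block, each library left out, halved counts, thinned counts and no fold limit.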

Additional observations from a re-analysis of the deposited data

How the results depend on the processing

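Of 96 values of the 8 tested members under 12 alternatives, 94 kept their side of the threshold, 1 no longer passed (HSPB1 without Erastin replicate 2), 1 newly passed (BAG3 without control replicate 1) and 0 of the called values changed direction. CRYAB, never past the threshold, changed sign when 1 library was left out. Of 835 values of the 70 other listed genes, 776 kept their side, 43 no longer passed and 16 newly passed. With all libraries kept, calls ended for PTGES3, PPID, PFDN4 and ZFAND2A by DESeq2 (adjusted p from 0.0509 to 0.0908). Their log2FC by DESeq2, -0.18, 0.35, -0.25 and 0.43, was that of edgeR once rounded. Calls also ended for PTGES3, TCP1, CCT5 and PFDN4 with library totals (0.0533 to 0.142), with a log2FC of -0.13, -0.17, -0.17 and -0.21. With thinned counts the call of PTGES3 ended (log2FC -0.18, adjusted p = 0.0509). CDC37 and CCT7 newly passed with library totals (0.0253 and 0.0367). No alternative brought a member past the fold limit with an adjusted p under 0.05. Without a limit on the fold change, 3 members were higher and 1 lower, as were 17 and 23 of the other listed genes and 3892 and 3977 of all genes. The labels number the replicates 1 and 2 in each group, but the deviations of same-numbered libraries correlated at only 0.02, so the numbers were not taken as pairs. With the replicate block, 0 members, 6 other listed genes and 1039 genes in all were upregulated, and 0, 2 and 1568 were downregulated. Leaving out 1 library left 4 to 6 listed genes upregulated and 2 to 3 downregulated. Library totals in place of TMM moved the median log2FC of all genes by 0.05. The sum of HSPA1A and HSPA1B did not pass the filter and was not tested, while HSPA1B alone was tested only without a filter. Where 1 library was left out, the lone library of its group was assumed to vary like the others. In such fits the adjusted p-values of HSP90AA1 and HSPB8 were larger without an Erastin library than without a control library, at a like log2FC. A call lost or gained with 1 library left out is therefore not read as resting on that library. For CRYAB, HSPA6, TTC4, HSF2BP, HSPB7, HSPB3, HSPB9 and DNAJA4, fewer than 100 counts per library limit the precision.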
